A study of Mus musculus with 14 samples.

Results

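A set of 10 genes that regulate the passage from G1 into S phase was followed through the RNA-seq and the FLAG-Trim71 pulldown: the D-type cyclins *Ccnd1*, *Ccnd2* and *Ccnd3*, the E-type cyclins *Ccne1* and *Ccne2*, the CDK inhibitors *Cdkn1a*, *Cdkn1b*, *Cdkn2a* and *Cdkn2b*, and the pocket protein gene *Rbl2*. They were chosen by gene symbol, and all 10 were present among the 41204 genes of the RNA-seq table and among the 14054 transcripts of the pulldown table. The RNA-seq compared mouse embryonic stem cells (ESCs), labelled with the strain cross C57BL/6(F) x 129/sv(M) and a stage of 3.5 days, that were either wild-type or *Trincr1*-/-. *Trincr1* (*Gm2694*) is a lincRNA, and its exons 2 to 4 were removed with a pair of guide RNAs; the labels do not say how many clones the sequenced knockout samples stand for. Both genotypes grew on gelatin in 2i + LIF (N2B27 with 1 μM of the MEK inhibitor PD0325901, 3 μM of the GSK3 inhibitor CHIR99021 and 1000 unit/ml of leukemia inhibitory factor) or were moved, after 24 hours there, to PD + LIF, which lacks CHIR99021, for 4 days. All groups therefore carried the MEK inhibitor and LIF, and each had 2 samples. The pulldown used a FLAG antibody on UV-crosslinked lysate of ESCs in 2i + LIF with overexpressed 3XFLAG-Trim71.

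D-type cyclins bind CDK4 and CDK6 and E-type cyclins bind CDK2, and these kinases phosphorylate the pocket proteins RB, p107 and p130, the last encoded by *Rbl2*, which releases E2F factors to switch on genes of DNA synthesis. The Ink4 inhibitors encoded by *Cdkn2a* and *Cdkn2b* block CDK4 and CDK6, while p21 (*Cdkn1a*) and p27 (*Cdkn1b*) bind cyclin-CDK complexes more broadly. Mouse ESCs are known for a short G1 phase and for cyclin E activity that varies little through the cycle. TRIM71 is an RNA-binding protein and *Cdkn1a* mRNA has been described as a target of it in ESCs. *Cdkn2a* encodes both p16 and the unrelated p19ARF from overlapping transcripts, which a gene-level value cannot separate.

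The stretch just before the start is shown for 3 of the genes, picked with their values known as examples of different results of the medium change described below, a lower level in wild-type ESCs (*Ccne1*), a higher level in both genotypes (*Cdkn1b*) and no call with all samples (*Cdkn1a*). Each run holds the 250 bases before a RefSeq start site in GRCm38.p6, 5′ to 3′ on the gene's strand. Capitals mark the GC box GGGCGG on either strand in *Ccne1* and *Cdkn1b*, and 10-base matches to the p53 half-site in *Cdkn1a*. The runs lie at chr7:38107491-38107740 on the minus strand (*Ccne1*), chr6:134920151-134920400 on the plus strand (*Cdkn1b*) and chr17:29090729-29090978 on the plus strand (*Cdkn1a*). In the RNA-seq table *Ccne1* reaches chr7:38107534, so the 3′ end of its run lies inside the gene as annotated there. *Cdkn1a* has a second start, whose window at chr17:29093519-29093768 is not shown. That window holds 2 GC boxes and 0 p53 half-sites.
Ccne1: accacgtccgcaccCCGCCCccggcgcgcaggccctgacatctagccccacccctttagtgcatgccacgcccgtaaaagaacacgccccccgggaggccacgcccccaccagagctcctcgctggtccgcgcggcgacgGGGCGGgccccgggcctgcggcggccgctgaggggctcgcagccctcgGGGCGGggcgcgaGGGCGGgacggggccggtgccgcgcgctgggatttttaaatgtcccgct
Cdkn1b: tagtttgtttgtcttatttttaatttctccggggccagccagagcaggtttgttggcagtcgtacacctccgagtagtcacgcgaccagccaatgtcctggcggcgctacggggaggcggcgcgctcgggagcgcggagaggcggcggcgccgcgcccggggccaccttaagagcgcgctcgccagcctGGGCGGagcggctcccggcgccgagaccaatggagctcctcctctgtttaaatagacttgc
Cdkn1a: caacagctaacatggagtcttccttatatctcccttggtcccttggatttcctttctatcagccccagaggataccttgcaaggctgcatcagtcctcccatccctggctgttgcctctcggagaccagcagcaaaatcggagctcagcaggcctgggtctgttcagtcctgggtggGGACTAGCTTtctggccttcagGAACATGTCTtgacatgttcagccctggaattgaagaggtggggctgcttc

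Of the 10 genes 7 had at least 1 of these windows, 10 windows in all, and *Ccnd1*, *Ccnd2* and *Ccne2* had none. The GC box was in 6 of the 10 windows and in 32.7% of all 32851 windows of the same length. The p53 half-site was in 1 of 10, against 7.13% of all. The E2F letters TTTCCCGC, TTTGGCGC, TTTCGCGC and TTTGCCGC were found on either strand in 1 window, that of a *Cdkn2a* start, against 1.86% of all. The FOXO letters GTAAACA were in 1 window (*Ccnd3*), against 3.17%, and the cyclic AMP response element TGACGTCA in 1 (*Cdkn2b*), against 1.55%. These are matches of letters and no measurement of binding.

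On the deposited FPKM scale, which is per length and lets genes be compared, the members spanned a wide range. The plot of FPKM in each sample shows it. Means over the 8 samples ran from 109 FPKM for *Ccnd3* to 1.27 FPKM for *Ccnd2*. *Cdkn2a* (35.0 FPKM), *Cdkn1b* (20.6 FPKM) and *Ccne2* (10.6 FPKM) lay between. *Ccnd3*, *Ccne1*, *Cdkn1a* and *Ccnd1* were the most abundant in 2i + LIF. *Ccnd3* lay between 94.8 and 121 FPKM over the 8 samples, and *Cdkn1a* between 64.5 and 80.0 FPKM. *Cdkn2b* and *Rbl2* stayed between 1.93 and 4.80 FPKM, and *Ccnd2* was the scarcest, with 0.285 FPKM in its lowest sample. Each sample held an estimated 9.32 to 12.7 M fragments, read from the FPKM worth of 1 fragment at lowly expressed genes. At that depth *Ccnd2* rested on an estimated 17.8 to 207 fragments per sample, *Cdkn2b* on 32.3 to 73.0 and *Ccnd3* on 2342 to 3264, so the scarce genes are the least precisely measured.

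**Figure D1:**
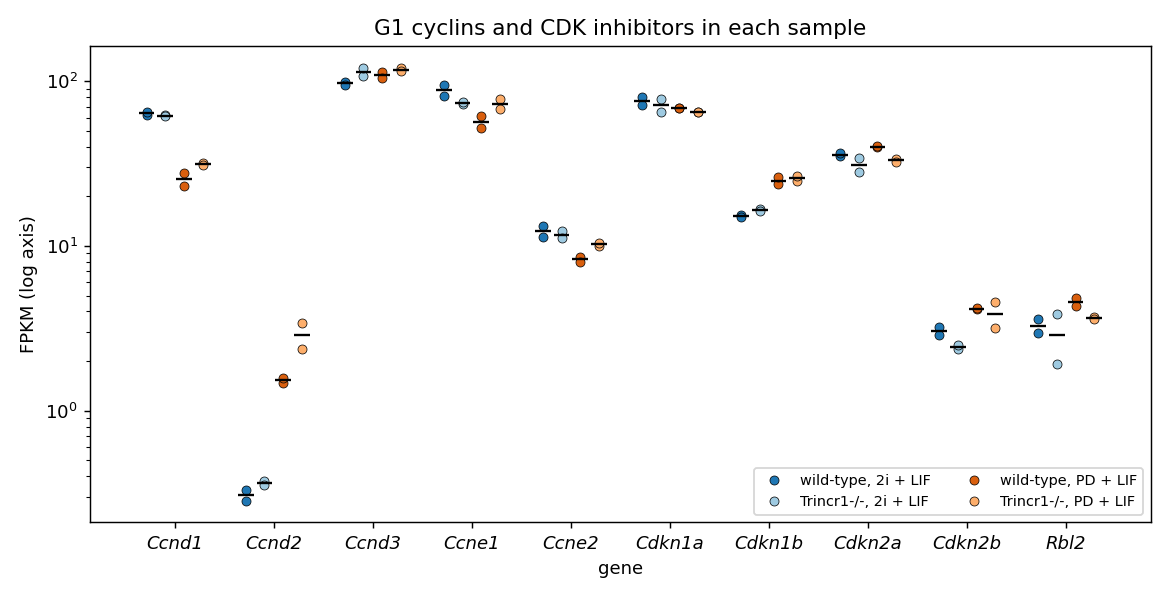
FPKM of each of the 10 genes (log axis) in each of the 8 samples, with points for samples, colours for the 4 groups and a bar for each group mean of 2 samples. *Ccnd1* sits lower and *Ccnd2* and *Cdkn1b* higher in PD + LIF than in 2i + LIF, while *Cdkn1a* stays between 64.5 and 80.0 FPKM.

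Before the comparisons, the deleted gene was checked. *Gm2694* was at 5.70 and 9.45 FPKM in wild-type ESCs in 2i + LIF and at 0.0754 and 0 FPKM in *Trincr1*-/- ESCs, and in PD + LIF at 6.18 and 6.56 FPKM against 1.38 and 0.746 FPKM. All knockout samples were below all wild-type samples. Of 8 ESC marker genes, 8 were above 1 FPKM in at least 1 sample, and 6 of 8 fibroblast markers, including *Col1a2* and *Dcn*, were at or under 1 FPKM in every sample, the others being *Col1a1* and *Thy1*. The fibroblast list summed to 0.714 to 1.497 FPKM over the 4 samples in 2i + LIF and to 4.47 to 6.87 FPKM over those in PD + LIF. The summed level of the ESC markers was 1848 to 1863 FPKM in wild-type and 1854 to 1897 in *Trincr1*-/- ESCs in 2i + LIF, and 1385 to 1438 against 1053 to 1106 FPKM in PD + LIF. In PD + LIF the 6 neural progenitor markers summed to 28.5 to 31.1 FPKM in wild-type and 39.3 to 39.8 FPKM in *Trincr1*-/- ESCs, beside 6.88 to 8.32 FPKM over both genotypes in 2i + LIF. The 7 trophoblast markers summed to 16.7 to 23.0 FPKM in 2i + LIF and 46.8 to 61.8 FPKM in PD + LIF. The 6 primitive streak markers summed to 8.95 to 9.67 and 3.31 to 4.09 FPKM, and the 8 primitive endoderm markers to 6.37 to 6.87 and 7.95 to 10.8 FPKM. The part of these shifts in the differences between genotypes or media below was not tested, and in bulk RNA fewer cells of a type and less RNA per cell cannot be told apart.

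The first question was how these genes respond when CHIR99021 is withdrawn. In wild-type ESCs *Ccnd1*, *Ccne1* and *Ccne2* fell and *Ccnd2* and *Cdkn1b* rose, so 5 of 10 genes passed the threshold, a share close to the 52.2% of all 15430 tested genes that did. The test was limma on log2(FPKM + 1), with p-values adjusted over all tested genes by Benjamini-Hochberg. In *Trincr1*-/- ESCs 4 of 10 passed, *Ccnd1* downward and *Ccnd2*, *Cdkn1b* and *Cdkn2b* upward, against 50.0% of all tested genes. The median difference of the 10 genes was 0.16 in wild-type and 0.07 in *Trincr1*-/- ESCs on the log2 scale, beside 0.08 and 0.07 over all tested genes.

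*Ccnd1*, a D-type cyclin and a known target of Wnt/β-catenin signaling, was at 62.6 and 65.3 FPKM in wild-type ESCs in 2i + LIF and at 23.0 and 27.6 FPKM in PD + LIF. In *Trincr1*-/- ESCs the samples were at 62.0 and 61.7 FPKM and then at 31.7 and 30.9 FPKM. Both PD + LIF groups lay below both 2i + LIF groups without overlap. The difference was -1.31 ± 0.08 (SE, adjusted p = 2.52e-05, limma) in wild-type and -0.96 ± 0.08 (adjusted p = 8.57e-05) in *Trincr1*-/- ESCs.

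*Ccnd2* moved the opposite way from a very low level. It was at 0.331 and 0.285 FPKM in wild-type ESCs in 2i + LIF and at 1.48 and 1.58 FPKM in PD + LIF. In *Trincr1*-/- ESCs it went from 0.373 and 0.355 FPKM to 3.42 and 2.37 FPKM, the highest of all groups. The mean was 4.96 times higher in PD + LIF in wild-type and 7.96 times higher in *Trincr1*-/- ESCs. On the log2(FPKM + 1) scale, which understates the change of a gene this low, the difference was 0.95 ± 0.15 (SE, adjusted p = 0.00155, limma) in wild-type ESCs and 1.15 to 1.85 as the 95% interval in *Trincr1*-/- ESCs (adjusted p = 0.000189).

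*Ccnd3* was the main D-type cyclin transcript in every sample. It made up 59.1 to 61.2% of the summed FPKM of the 3 D-type cyclins in wild-type ESCs in 2i + LIF and 78.1 to 82.3% in PD + LIF, and 63.2 to 66.1% and 77.4 to 77.5% in *Trincr1*-/- ESCs. *Ccnd3* itself did not pass the threshold in either genotype (0.17, 95% interval 0.00 to 0.33, in wild-type and 0.05, -0.12 to 0.21, in *Trincr1*-/- ESCs), though with quantile normalization it passed in wild-type ESCs at 0.32 (adjusted p = 0.00830, limma). The share was higher where *Ccnd1* was lower.

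The E-type cyclins, which drive CDK2 at the entry into S phase, were lower in PD + LIF in wild-type ESCs. *Ccne1* was at 95.3 and 81.8 FPKM in 2i + LIF and at 52.1 and 61.5 FPKM in PD + LIF, a difference of -0.63 ± 0.11 (SE, adjusted p = 0.00201, limma). In *Trincr1*-/- ESCs it was at 72.4 and 74.2 FPKM and at 77.8 and 67.9 FPKM, and these ranges overlapped (-0.01, 95% interval -0.26 to 0.24). *Ccne2* fell by 0.50 ± 0.10 in wild-type ESCs (adjusted p = 0.00373, limma), from 13.2 and 11.3 FPKM to 8.62 and 8.03 FPKM. In *Trincr1*-/- ESCs it was at 12.3 and 11.1 FPKM and at 10.05 and 10.5 FPKM, without overlap but short of the threshold (-0.17, 95% interval -0.40 to 0.05), which it passed only with quantile normalization (-0.30, adjusted p = 0.0370, limma). *Ccne1* held 85.5 to 88.6% of the E-type cyclin FPKM across all 8 samples, so the 2 genes kept nearly the same proportion.

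Among the inhibitors, *Cdkn1b* (p27) rose in both genotypes. It was at 15.4 and 15.0 FPKM in wild-type ESCs in 2i + LIF and at 23.6 and 26.0 FPKM in PD + LIF, and at 16.7 and 16.2 and then 24.8 and 26.7 FPKM in *Trincr1*-/- ESCs. The media did not overlap, with differences of 0.67 ± 0.07 (SE, adjusted p = 0.000249, limma) and 0.61 ± 0.07 (adjusted p = 0.000374). *Cdkn2b* (p15) was at 3.23 and 2.88 FPKM and at 4.12 and 4.19 FPKM in wild-type ESCs (0.35 ± 0.15, adjusted p = 0.0877), and at 2.37 and 2.49 and then 4.55 and 3.18 FPKM in *Trincr1*-/- ESCs (0.49 ± 0.15, adjusted p = 0.0284). In wild-type ESCs *Cdkn2b* passed when either *Trincr1*-/- library in PD + LIF was left out (adjusted p = 0.0396 and 0.0377, limma). The call in *Trincr1*-/- ESCs held under 11 of 17 other settings and was lost without *Trincr1*-/- replicate 1 or replicate 2 in 2i + LIF or replicate 1 in PD + LIF, where the difference was 0.29. It was also lost with no filter, with only the 4 samples compared and with quantile normalization, where the difference was 0.20. Over all settings the adjusted p lay between 0.00908 and 0.294.

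*Cdkn1a* (p21) did not pass in either medium comparison with all samples. It was at 80.0 and 71.4 FPKM in wild-type ESCs in 2i + LIF and at 69.1 and 68.3 FPKM in PD + LIF, and at 64.9 and 77.9 and then 64.5 and 65.0 FPKM in *Trincr1*-/- ESCs. The differences were -0.14 (95% interval -0.35 to 0.07) and -0.13 (-0.34 to 0.08), so a rise of the size seen for *Cdkn1b* lies outside both intervals. Without *Trincr1*-/- replicate 1 in 2i + LIF, its lower sample there, the difference in *Trincr1*-/- ESCs was -0.26 and passed (adjusted p = 0.0338, limma). *Cdkn2a* (0.16 and 0.09) and *Rbl2* (0.38 and 0.31) did not pass either, and the interval for *Rbl2* in wild-type ESCs, -0.14 to 0.91, was wide. Both passed in wild-type ESCs when either *Trincr1*-/- library in 2i + LIF was left out of the shared fit (adjusted p from 0.0378 to 0.0480, limma), and in *Trincr1*-/- ESCs without replicate 2 in 2i + LIF, where they were 0.23 and 0.67.

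**Figure D2:**
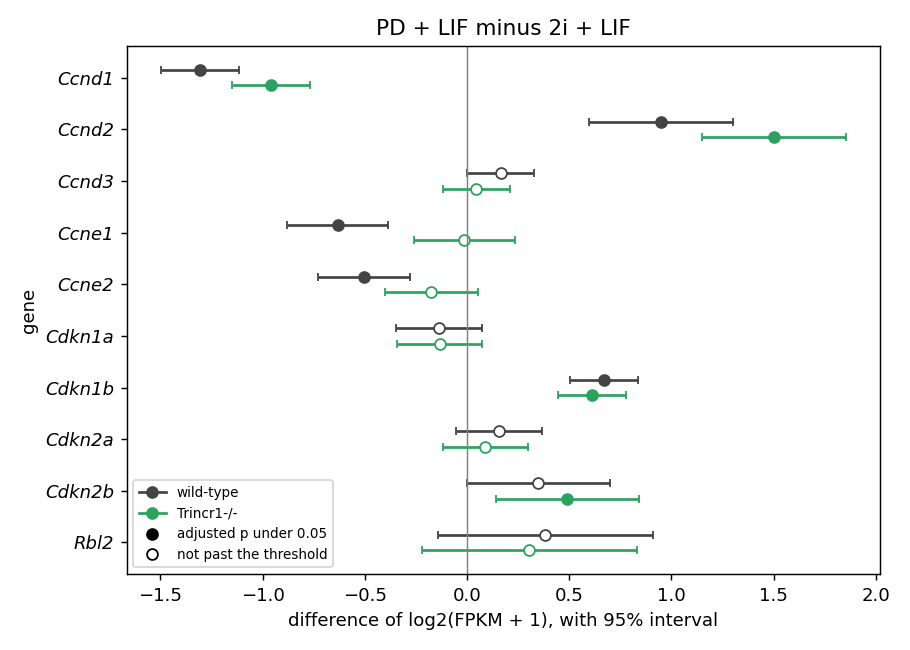
Difference between PD + LIF and 2i + LIF in log2(FPKM + 1) for each gene, with 95% intervals from limma, for wild-type (grey) and *Trincr1*-/- (green) ESCs; filled points have an adjusted p under 0.05. *Ccnd1* is negative at -1.31 and -0.96, *Ccnd2* and *Cdkn1b* are positive in both genotypes, and *Ccne1* is at -0.63 in wild-type and -0.01 in *Trincr1*-/- ESCs.

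The second question was whether loss of *Trincr1* changed these genes. In 2i + LIF 0 of 10 passed in limma, where 1.21% of all tested genes did, and 2 had an unadjusted p under 0.05, as did 14.6% of all tested genes. These were *Ccnd3* (0.23 ± 0.07 SE, adjusted p = 0.198) and *Ccne1* (-0.26 ± 0.11, adjusted p = 0.311). For *Ccnd3* the knockout samples, at 107 and 121 FPKM, lay above the wild-type samples at 99.1 and 94.8 FPKM. The interval for *Cdkn1a* was -0.30 to 0.12. The median difference was -0.07 over the 10 genes and 0.00 over all tested genes.

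In PD + LIF 1 of 10 genes passed, *Ccnd2*, where 12.1% of all tested genes did. Its *Trincr1*-/- samples at 3.42 and 2.37 FPKM lay above the wild-type samples at 1.48 and 1.58 FPKM, a difference of 0.61 ± 0.15 (SE, adjusted p = 0.0415, limma). The call held under 5 of 17 other settings, with adjusted p from 0.0358 to 0.159 and differences from 0.42 to 0.86. Leaving out 1 library kept it only without *Trincr1*-/- replicate 2 in PD + LIF. In the 7 other cases, which include each wild-type library, it was lost. By the rule of a ratio of means above 2 with an average of at least 1 FPKM, which 3.19% of tested genes met, 0 of 10 genes passed, since *Ccnd2* had a ratio of 1.90; without *Trincr1*-/- replicate 2 in PD + LIF 1 gene passed.

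The other cyclins also lay above zero in *Trincr1*-/- ESCs without passing in limma, *Ccnd3* least (0.11). *Ccnd1* was at 31.7 and 30.9 FPKM in *Trincr1*-/- against 23.0 and 27.6 FPKM in wild-type ESCs (0.30 ± 0.08, adjusted p = 0.0547). That difference was 0.17 without wild-type replicate 1 and 0.43 without wild-type replicate 2 in PD + LIF, and passed in the latter case (adjusted p = 0.0263, limma). *Ccne1* was at 77.8 and 67.9 against 52.1 and 61.5 FPKM (0.36 ± 0.11, adjusted p = 0.0719), and *Ccne2* at 10.05 and 10.5 against 8.62 and 8.03 FPKM (0.27 ± 0.10, adjusted p = 0.116). In all 3 the genotypes did not overlap, but with 2 samples per group this arises easily. The share of all tested genes without overlap was not counted. *Cdkn2a* was at 33.9 and 32.3 against 39.7 and 40.3 FPKM (-0.27 ± 0.09, adjusted p = 0.0981), and passed when *Trincr1*-/- replicate 1 or replicate 2 in 2i + LIF was left out (adjusted p = 0.0351 and 0.0355, limma). With *Ccnd2*, 5 of 10 genes had an unadjusted p under 0.05, against 28.5% of all tested genes. For *Cdkn1a* the difference was -0.08 (95% interval -0.29 to 0.13) and for *Cdkn1b* 0.05 (-0.12 to 0.22).

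**Figure D3:**
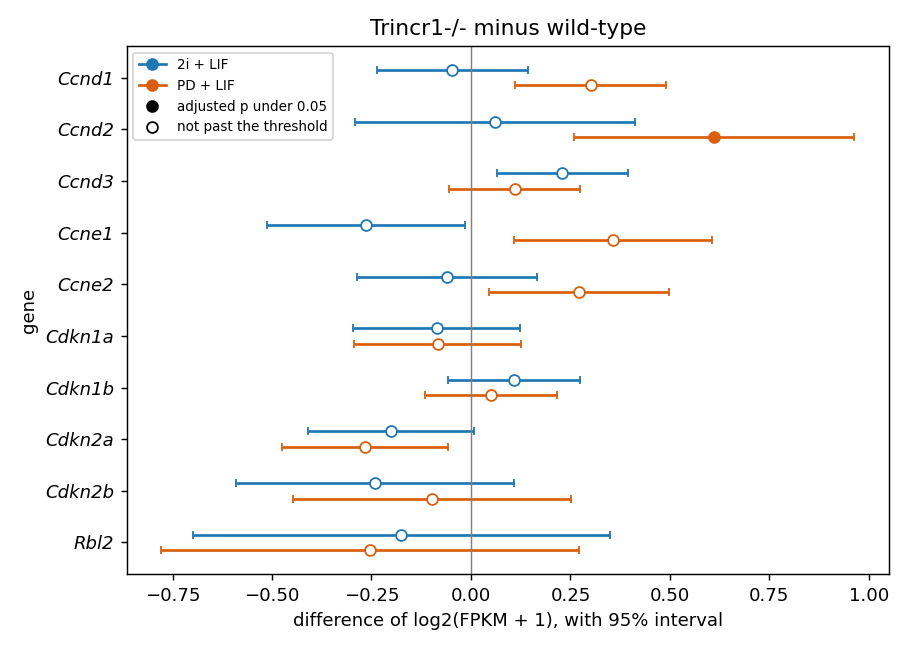
Difference between *Trincr1*-/- and wild-type ESCs in log2(FPKM + 1) for each gene, with 95% intervals from limma, in 2i + LIF (blue) and PD + LIF (orange); filled points have an adjusted p under 0.05. The only filled point is *Ccnd2* in PD + LIF at 0.61, and the interval of *Cdkn1a* includes 0 in both media.

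An interaction term tested whether the genotype effect depended on the medium, which is equally a test of whether the medium effect depended on the genotype. None of the 10 genes passed in limma (0 of 10), where 1.81% of all tested genes did, and 4 of 10 had an unadjusted p under 0.05, against 19.03% of all tested genes. *Ccne1* came closest, with an interaction of 0.62 ± 0.15 (SE, adjusted p = 0.0888), and adjusted p between 0.0695 and 0.245 over 16 other settings. *Ccnd1* (0.35, adjusted p = 0.166), *Ccnd2* (0.55, adjusted p = 0.221) and *Ccne2* (0.33, adjusted p = 0.248) had the same sign in limma. The fall of *Ccne1* and *Ccne2* in wild-type ESCs was thus not shown to differ from *Trincr1*-/- ESCs. All of these comparisons share groups, so their values are set side by side and are not independent.

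The order of the group means differed between the genes. For *Ccnd1* it ran from wild-type 2i + LIF through *Trincr1*-/- 2i + LIF and *Trincr1*-/- PD + LIF to wild-type PD + LIF, and no neighbouring groups overlapped. For *Ccnd2* it ran from *Trincr1*-/- PD + LIF down to wild-type 2i + LIF, again without overlap. The steps between genotypes in 2i + LIF were far from the threshold, with adjusted p of 0.868 for *Ccnd1* and 0.923 for *Ccnd2* (limma). With 2 samples per group such separation arises easily, and its share over all tested genes was not counted. For *Ccne1* the samples of *Trincr1*-/- ESCs in both media overlapped between the 2 wild-type groups. For *Cdkn1a* the groups in order of mean were wild-type and *Trincr1*-/- in 2i + LIF and then wild-type and *Trincr1*-/- in PD + LIF, and only the last neighbours did not overlap.

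For the 3 genes with the widest range of group means, the most similar profiles over the 8 samples were sought among 12063 genes, by the root mean square difference of gene-centred log2(FPKM + 1). *Ccnd2* was nearest to *Cd248* (0.0821), *Phc2* (0.100) and *Tpm4* (0.102). This scale understates the change of *Ccnd2*, whose mean was 0.308 FPKM in wild-type 2i + LIF and 2.90 FPKM in *Trincr1*-/- PD + LIF. The same means were 9.88 and 30.1 FPKM for *Phc2* and 51.7 and 147 FPKM for *Tpm4*, which are smaller ratios. *Ccnd1* was nearest to *Snhg5* (0.0554), *Cmtm7* (0.0683) and *Mat2a* (0.0739), and *Cdkn1b* to *Pdcl* (0.0441), *Wdr19* (0.0442) and *Gm20204* (0.0524).

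Around these 10 genes, 10 lists of the pathway with 89 genes, 86 of them tested, were examined in the same fit. On withdrawal of CHIR99021 51 of the 86 passed in wild-type ESCs, 30 upward and 21 downward, and 55 passed in *Trincr1*-/- ESCs, 34 upward and 21 downward. These are 59.3% and 64.0% of the 86, beside 52.2% and 50.0% of all tested genes. Over all tested genes 30.9% rose and 21.3% fell in wild-type ESCs, and 29.6% rose and 20.3% fell in *Trincr1*-/- ESCs, and the counts of each list stand against these shares. Several lists showed no clear lean. Of 10 E2F and DP factors 3 rose and 2 fell in wild-type ESCs, and of 11 genes of G1 turnover and CDK2 activation 2 and 2. Of 7 other cyclins 2 rose and 1 fell there, and of 3 other CDK inhibitors 1 and 0. All of the 3 G1 kinases had lower means, and *Cdk6* and *Cdk4*, the partners of D-type cyclins, fell in wild-type ESCs by 1.74 and 0.54 on the log2 scale (adjusted p under the threshold in limma). *Cdk6* went from 8.95 to 9.24 FPKM down to 1.74 to 2.34 FPKM. Of 15 S phase targets of E2F, 10 fell and 0 rose in wild-type ESCs, with a median of -0.26, and 9 fell and 1 rose in *Trincr1*-/- ESCs, with a median of -0.27, where 21.3% and 20.3% of all tested genes fell. *Tk1*, thymidine kinase, fell by 0.86, *Tyms*, thymidylate synthase, by 0.60 and *Pcna*, the sliding clamp of DNA polymerase, by 0.52 in wild-type ESCs. Of 11 cyclins, kinases and other regulators of S, G2 and M, 4 rose and 0 fell in wild-type ESCs. In *Trincr1*-/- ESCs 7 rose and 1 fell. The shares of all tested genes that rose were 30.9% and 29.6%.

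The inhibitor *Cdkn1c* (p57) and the pocket protein gene *Rb1* had larger rises on the log2(FPKM + 1) scale than any of the 10 genes in wild-type ESCs, a scale that understates the rise of *Ccnd2*. *Cdkn1c* went from 2.02 to 2.11 FPKM up to 34.9 to 42.7 FPKM (3.69 ± 0.13 SE) and *Rb1* from 1.15 to 1.17 up to 5.25 to 5.32 FPKM (1.54 ± 0.13). *Rbl1*, which encodes p107, fell by 0.46. Of 14 p53 targets other than *Cdkn1a*, 12 rose and 0 fell in wild-type ESCs and 11 rose in *Trincr1*-/- ESCs, where 30.9% and 29.6% of all tested genes rose, with medians of 0.76 and 0.74, beside the -0.14 and -0.13 of *Cdkn1a*. *Bbc3* (2.28), *Perp* (1.94), *Btg2* (1.85) and *Gadd45a* (1.53) had the largest rises of that list in wild-type ESCs. Of 10 upstream factors 5 rose and 3 fell in wild-type ESCs, and 6 rose and 2 fell in *Trincr1*-/- ESCs. In wild-type ESCs *Foxo3* rose by 1.06, *Klf4* fell by 1.08 and *Myc* fell by 1.05. *Myc* did not pass in *Trincr1*-/- ESCs (0.15, adjusted p = 0.514, limma), where *Foxo3* rose by 0.93 and *Klf4* fell by 1.18.

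Between genotypes, 0 of the 86 genes passed in 2i + LIF in limma, with 17 at an unadjusted p under 0.05, and 12 passed in PD + LIF, 9 upward and 3 downward. Of all tested genes 1.21% passed in 2i + LIF, 14.6% had an unadjusted p under 0.05 there and 12.1% passed in PD + LIF, so the 13.95% of the list genes that passed in PD + LIF is near the background and is not a result about the lists. *Myc* was at 8.29 to 11.0 FPKM in *Trincr1*-/- and 3.60 to 3.95 FPKM in wild-type ESCs (1.14 ± 0.18 SE, adjusted p = 0.00975). *Cdkn1c* (1.00), *Gadd45a* (0.77), *Bmi1* (0.71), *Mycn* (0.38), *Cul1* (0.28), *Cdk4* (0.26), *Cdc6* (0.25) and *Cdk1* (0.20) were also higher, and *Ung* (-0.32), *Dtl* (-0.25) and *Cul4b* (-0.19) lower. *Bmi1* encodes a Polycomb protein known to repress the *Cdkn2a* locus. *Cdkn2a* did not pass between genotypes in PD + LIF with all samples (adjusted p = 0.0981, limma), and a link between these genes was not tested.

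The last question was whether the transcripts were enriched with TRIM71. The table holds 1 FPKM value per transcript for the pulldown and 1 for the input, so no fold has an error or a test. Per the labels the input RNA was selected on poly-T beads as for RNA-seq while the precipitated RNA went directly into cDNA, and the empty-vector control pulldown was not used here. The fold is the scaled pulldown over the input, where the deposited scaling multiplied the pulldown by 2.25. Of the 10 genes 9 had an input above 2 FPKM, and 0 of these 9 had a fold above 3, where 5.1% of the 9651 transcripts with such an input did.

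*Cdkn2a* and *Cdkn1a* had the highest folds of the 10 genes. *Cdkn2a* had an input of 28.5 FPKM and a scaled pulldown value of 24.9, a fold of 0.874, and 17.9% of transcripts with an input above 2 FPKM had a higher one. *Cdkn1a* had an input of 206.9 FPKM and a scaled pulldown value of 145.1, a fold of 0.701, and 21.6% had a higher one. Transcripts within 1.5 times of the input of *Cdkn1a* had a median fold of 0.278, and those near *Cdkn2a* 0.177.

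The cyclins were lower. *Ccnd1* had a fold of 0.303, *Ccnd3* of 0.270 and *Ccne1* of 0.143, beside medians of 0.158, 0.286 and 0.227 among transcripts of similar input, and *Cdkn1b* had a fold of 0.121 beside 0.160. *Ccne2*, *Cdkn2b* and *Rbl2* were listed at 0 in the pulldown with inputs of 2.5, 4.2 and 3.8 FPKM, as were 76.8%, 67.6% and 69.4% of transcripts of similar input. *Ccnd2* was also listed at 0, from an input of 0.2 FPKM. For comparison *Gm2694* had a fold of 69.7 and *Trim71* of 0.491.

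Of the pathway lists, 4 transcripts passed the rule in the pulldown, which 5.1% of the 9651 transcripts with an input above 2 FPKM passed. They were *Ambra1* (fold 4.86), which encodes a substrate receptor for the turnover of D-type cyclins, and 3 p53 targets. *Ambra1* was 1 of 12 in its list. The p53 targets were *Bbc3* (10.8), *Aen* (3.87) and *Mdm2* (3.05), 3 of 14 in that list. None of the other lists had a transcript past the rule. These counts were not tested and are not taken as a result about the lists.

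**Figure D4:**
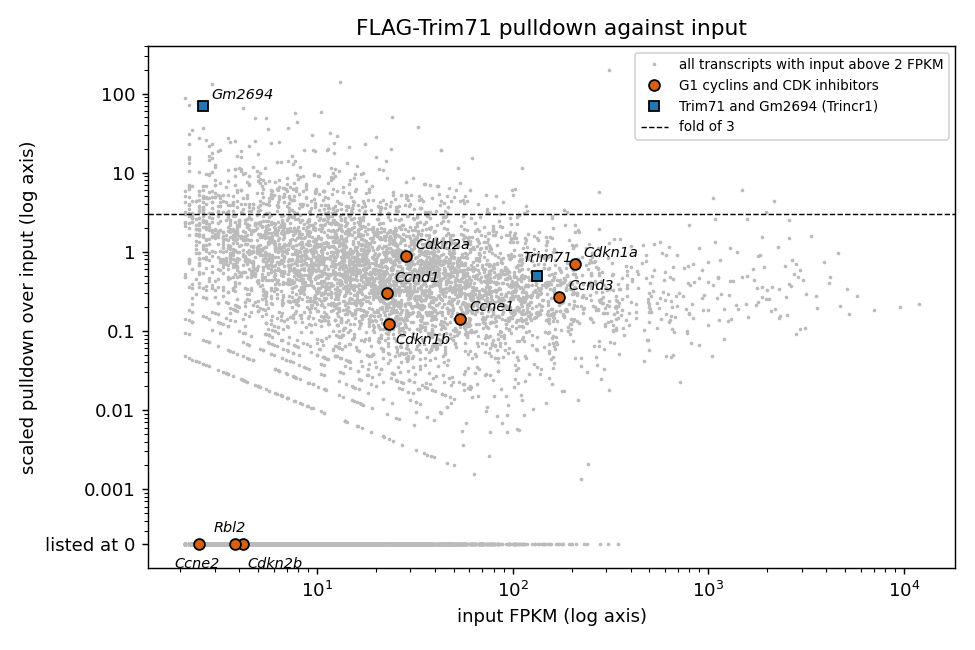
Fold of scaled pulldown over input (log axis) against input FPKM (log axis) for the 9651 transcripts with an input above 2 FPKM (grey), with transcripts listed at 0 on the bottom line. The G1 cyclins and CDK inhibitors (orange) lie below the dashed line at a fold of 3, with *Cdkn2a* highest at 0.874, and *Gm2694* (blue) is at 69.7.

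In the RNA-seq table, which gives coordinates of GRCm38, all 10 are annotated as protein-coding genes. The D-type cyclin genes span *Ccnd1* at chr7:144929931-144939869, *Ccnd2* at chr6:127125779-127151048 and *Ccnd3* at chr17:47505051-47599691. The E-type cyclin genes span *Ccne1* at chr7:38097984-38107534 and *Ccne2* at chr4:11191351-11204779. The inhibitors lie with *Cdkn1a* at chr17:29090979-29100722 and *Cdkn1b* at chr6:134920401-134925513, and with *Cdkn2a* at chr4:89274471-89294653 next to *Cdkn2b* at chr4:89306289-89311032. *Rbl2* spans chr8:91070057-91123844.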

How the data were processed

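Poly(A) RNA of 8 samples in 4 groups and the FLAG-Trim71 pulldown with its input were analysed from the deposited FPKM values. According to the labels the authors aligned reads with STAR 2.5.0 and computed FPKM with Cufflinks 2.2.1; mm9 is named there, while the coordinates in the RNA-seq table match GRCm38. Library strandedness is not given in the sources used here. The deposited pulldown FPKM values are rounded to 1 decimal, with 1 value each for input and pulldown, and how their 2 replicates were combined is not stated. A second deposited pair of columns, treated as a score, is that FPKM scaled by the authors between pulldown and input. Columns of the authors' own fold of enrichment were not used.

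Of 41260 entries, 41204 genes were kept (highest mean per identifier), and 15430 with a mean above 0.2 FPKM were tested. Log2(FPKM + 1) was fitted in limma 3.58.1 (R 4.3.3) with all 4 groups in 1 model, a trended prior variance and 4 residual degrees of freedom, and adjusted by Benjamini-Hochberg at 0.05. Replicates are samples the labels number 1 and 2; nothing says they were separate cultures, so p-values measure the spread between these samples, which may be technical. Depth was estimated from the step of 1 fragment in single-transcript genes of 1500 to 4000 bases; the effective length used by the authors is unknown, so it is approximate. The methods were tested on simulated data. Python 3.11.15, pandas 2.3.3, numpy 2.4.6 and matplotlib 3.10.9 handled tables and plots. Promoter sequences are from RefSeq, GRCm38.p6. Named genes are the 10 members, up to 4 genes per list and comparison with the largest change past the threshold, and for 3 members the 3 nearest profiles. Members and lists were chosen with earlier results of these data known. Alternatives covered the pseudocount, filter, normalization, variance model, samples and cutoffs.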

Additional observations from a re-analysis of the deposited data

Results flagged for a closer look

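The genotype effect on *Cdkn1c*, which encodes the CDK inhibitor p57, was called as different between the media in the interaction test. The interaction was 1.12 ± 0.19 on the log2(FPKM + 1) scale (SE, adjusted p = 0.0397, limma). This call lies near the threshold and was not repeated under the other settings of the fit. Over all tested genes 279 passed the interaction test, and 39 did so with the replicate block. In 2i + LIF *Cdkn1c* was at 2.02 to 2.11 FPKM in wild-type and 1.60 to 2.08 FPKM in *Trincr1*-/- ESCs, and in PD + LIF at 34.9 to 42.7 and 72.1 to 85.1 FPKM. It was the 1 gene of the 86 tested in the pathway lists with such a difference, 1.16% of them beside 1.81% of all tested genes. With 2 samples per group no search for outlying samples was made.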

How the results depend on the processing

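Across 17 other settings of the fit, the counts in 2i + LIF between genotypes and in the interaction (16 settings) stayed at 0. The count for genotype in PD + LIF is the least stable: it was 0 with a pseudocount of 0.1 or 0.5, with no filter on low values and with only the 4 samples compared, and 2 with a mean above 1 FPKM or median-ratio scaling, where *Ccnd1* joined *Ccnd2*; the cause was not tested. Leaving out 1 library gave 0 to 1. The replicate block gave 0 genes for genotype in PD + LIF, 0 in 2i + LIF and 0 for the interaction, and left 5 and 4 genes for the medium. Over all tested genes, same-numbered samples did not deviate together (correlations from -0.0539 to 0.00634). Whether they shared a culture or a batch was not tested. The medium counts ranged from 5 to 7 in wild-type and 3 to 5 in *Trincr1*-/- ESCs. By the fold rule 1 gene passed at a ratio above 1.5, and leaving out 1 library gave 0 to 1. In the pulldown the count was 0 under all 6 alternatives.

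None of the differences that changed sign was called as reported or where it had the other sign. On leaving out 1 library they ranged, for genotype in 2i + LIF *Ccne2* (-0.16 to 0.0436), *Cdkn1a* (-0.22 to 0.0438) and *Rbl2* (-0.54 to 0.19), and for genotype in PD + LIF *Cdkn1b* (-0.0171 to 0.12) and *Cdkn2b* (-0.30 to 0.11). They ranged, for the interaction *Cdkn1a* (-0.13 to 0.13, and -0.038 with quantile normalization), *Cdkn1b* (-0.12 to 0.00914), *Cdkn2a* (-0.20 to 0.0715), *Cdkn2b* (-0.0626 to 0.35) and *Rbl2* (-0.44 to 0.28), and for medium in *Trincr1*-/- ESCs *Ccnd3* (-0.0401 to 0.13, and -0.0108 with median ratio scaling), *Ccne1* (-0.11 to 0.084, and 0.071 with quantile normalization), *Cdkn2a* (-0.0486 to 0.23) and *Rbl2* (-0.0585 to 0.67). Of 840 fits of single genes under other settings, 782 kept direction and side of the threshold, 18 lost the threshold, 16 gained it and 24 changed sign. With 2 samples per group and 4 residual degrees of freedom, small differences of scarce genes such as *Ccnd2* and *Rbl2* are at the limit of what these data resolve.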
